A study of Mus musculus with 10 samples.

Results

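Immunity-related GTPases (IRGs) and guanylate binding proteins (GBPs) were followed across wild-type, Snf5-/- and Brg1-/- primary mouse embryonic fibroblasts. The set held 7 genes, taken by name whatever their values: Igtp, Irgm1, Iigp1, Ifi47, Gbp2, Gbp3 and Tgtp1. All probe sets whose current or older symbol was a member were taken, which gave 9 of the 22690 probe sets on the array. Iigp1 and Gbp2 had 2 probe sets each, called here the brighter and the dimmer. Tgtp1 was covered only by a probe set assigned to both Tgtp1 and its near-identical neighbour Tgtp2, so its values are given as Tgtp1/Tgtp2 and 6 members had a probe set of their own.

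The labels describe fibroblasts taken from E13.5 embryos of a mixed C57BL/6 and 129 background. The treatment described for every group, wild type included, was Cre recombinase carried by a retrovirus, followed by selection in puromycin at 2.5 µg/ml. There were 3 wild-type, 3 Snf5-/- and 4 Brg1-/- arrays of total RNA. Snf5 (Smarcb1) is a core subunit and Brg1 (Smarca4) an ATPase of the SWI/SNF chromatin remodelling complex. The labels do not say whether replicates were separate embryos or cultures, so every p-value here covers only array-to-array spread, which may be technical. No interferon or infection is named in the labels of any group.

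IRGs and GBPs are large GTPases that cells make in response to interferons, most strongly interferon gamma, and that act inside the cell against parasites and bacteria living in vacuoles. The regulatory IRGs, Irgm1, Irgm2 and Igtp (also Irgm3), sit on the cell's own membranes and hold the effector IRGs in an inactive state. The effectors, among them Iigp1 (Irga6), Tgtp (Irgb6) and Ifi47 (Irgd), load onto the vacuole around a parasite, and GBPs gather there with them. Transcription of the family is driven by STAT and IRF factors, which bind the gamma-activated site and the interferon-stimulated response element.

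Promoter windows of 300 bases around the gene start were taken from RefSeq (GRCm38.p6) for 6 of the 7 members, all but Iigp1. Windows of members and relatives on another chromosome were left out before the search, and no Iigp1 window was searched. The windows of Igtp, Irgm1, Ifi47 and Tgtp1 lie on chromosome 11 and those of Gbp2 and Gbp3 on chromosome 3. The core of the interferon-stimulated response element was searched as GAAA, any 2 bases, then GAAA (TTTC, any 2 bases, then TTTC on the other strand), and the core of the gamma-activated site as TTCNNNGAA, which reads the same on both strands. The 60 bases around each response element core upstream of the start are shown because the members share it. Each runs 5′ to 3′ along the gene, and capitals mark both cores.
Igtp, chr11:58199496-58199555, plus strand: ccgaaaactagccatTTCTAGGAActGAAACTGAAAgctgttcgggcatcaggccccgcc
Irgm1, chr11:48871421-48871480, minus strand: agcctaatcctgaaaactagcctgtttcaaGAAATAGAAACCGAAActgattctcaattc
Tgtp1, chr11:48992289-48992348, minus strand: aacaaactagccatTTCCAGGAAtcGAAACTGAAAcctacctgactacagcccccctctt
Tgtp2, chr11:49064248-49064307, minus strand: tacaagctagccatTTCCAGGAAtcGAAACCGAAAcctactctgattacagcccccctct
Gbp2, chr3:142620579-142620638, plus strand: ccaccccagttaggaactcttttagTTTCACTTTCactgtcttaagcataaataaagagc
Gbp3, chr3:142559977-142560036, plus strand: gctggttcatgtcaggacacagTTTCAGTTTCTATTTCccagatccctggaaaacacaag

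The response element core was found in 5 of the 6 members searched, against 3.99% of 27025 genes with windows of the same length. That share kept the chromosome left out for members and relatives, and whether an Iigp1 window would match was not tested. It began 34 bases upstream of the start in Igtp, 59 in Gbp2 and 77 in Tgtp1. Irgm1 and Gbp3 each held 2 overlapping matches, the first of which began 30 bases upstream in Irgm1 and 45 in Gbp3. In Igtp, Tgtp1 and Tgtp2 a gamma-activated site core lay just before the response element, and 9.55% of all genes held that core somewhere in a window. Gbp3 also had a second listed start whose window held neither core. The Ifi47 window held neither set of letters. A match is a description of the sequence and no evidence of binding in these cells.

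Values are MAS5 intensities as deposited, on a linear scale. Array medians ran from 145.6 to 233.65 and averaged 208 ± 22.6 in wild type (SD, n = 3), 173 ± 14.3 in Snf5-/- (n = 3) and 156 ± 12.1 in Brg1-/- (n = 4). Log2 changes were therefore fitted on quantile-normalized values, and a gene is written as risen or fallen only if it also passed an adjusted p of 0.05 on the deposited scale. Against wild type the median of all genes tested was -0.27 on the deposited log2 scale in Snf5-/- and -0.47 in Brg1-/-, and 0.02 in both after normalization. Background on an array is the highest of 27 bacterial control probe sets, 26.7 to 57.4 in intensity. Smarcb1 intensity was 297 ± 29.8 in Snf5-/- against 951 ± 147 in wild type, and Smarca4 was 450 ± 105 in Brg1-/- against 2849 ± 853 (SD), as the labels have it, though whether these probes lie in the deleted parts is not given in the sources used here. All 10 fibroblast markers were above background on every array.

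In Snf5-/- cells 4 of the 6 members with their own probe set rose on both scales and 0 fell, where 3.16% of 8397 genes tested rose and 7.46% fell. The 4 were Igtp, a regulatory IRG, by 6.86-fold, Iigp1, an effector, by 5.77-fold, Gbp2 by 4.17-fold, and Gbp3. In Brg1-/- cells 2 rose, Igtp by 3.36-fold and Gbp3, beside 3.43% of all genes. Gbp3 was above background on 1 of 3 wild-type arrays and entered the test only through mutant arrays, so its size is poorly measured and it had to differ to be tested. Among Snf5-/- changes 3 of the other 5 members rose, and among Brg1-/- changes 1 did. On the deposited scale every Snf5-/- array lay above every wild-type array for 4 members (4.99% of all genes), and every Brg1-/- array did so for 2 (3.86%). Both comparisons use the same 3 wild-type arrays. The plot of member intensities by array shows every value described below.

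**Figure D1:**
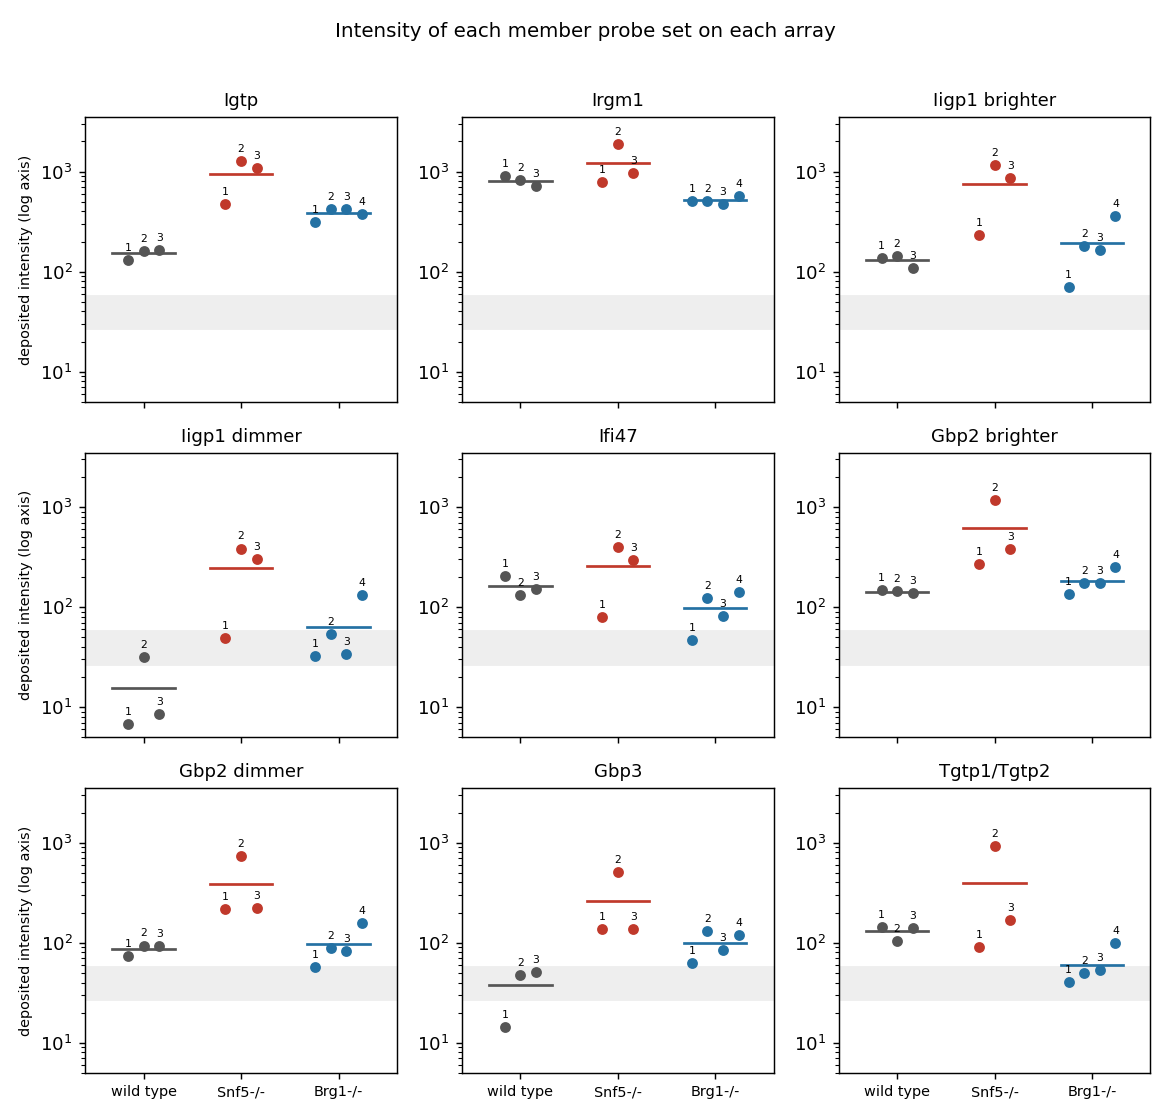
Deposited intensity (log axis) of the 9 member probe sets on each of the 10 arrays, with replicate numbers beside the points, bars at the group means, and a grey band over the range of array backgrounds (26.7 to 57.4). Snf5-/- replicate 2 is the highest of all 10 arrays in 9 of 9 panels.

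Among the regulatory IRGs, Igtp was higher on all mutant arrays than on any wild-type array. Wild-type arrays read 130.2, 162 and 165.9, Snf5-/- arrays 477, 1278.9 and 1091.2, and Brg1-/- arrays 315.5, 425.3, 419.1 and 378.4. No wild-type array reached the lowest mutant array on either scale. The mutants did not overlap in deposited intensity, but after normalization Brg1-/- replicate 2 lay just above Snf5-/- replicate 1, and the adjusted p between the mutants was 0.0596. Igtp rose by 2.78 ± 0.30 on the log2 scale in Snf5-/- (SE of the fit, limma adjusted p = 9.38e-05, 6.06e-06 on the deposited scale). In Brg1-/- it rose by 1.75 ± 0.28 (limma adjusted p = 0.000827, deposited 0.000543). It passed the threshold in all 10 fits that left out 1 array, on both scales and in both comparisons, with changes of 2.46 to 3.18 in Snf5-/- and 1.55 to 1.87 in Brg1-/- after normalization.

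Irgm1, which is needed to keep effector IRGs off the cell's own lysosomes and vesicles, was already well above background without a deletion. Its wild-type intensities were 896.7, 826.3 and 712.4. Snf5-/- arrays read 792.8, 1897.8 and 976.6, and Brg1-/- arrays 510.1, 513.5, 478.7 and 572.4. On the deposited scale Snf5-/- replicate 2 stood apart and the other Snf5-/- arrays lay within or just above the wild-type range. All 4 Brg1-/- arrays lay below every wild-type array on that scale, as did those of 49.3% of genes tested. After normalization every Snf5-/- array lay above every wild-type array (log2 levels of 9.72 to 11.04 against 9.27 to 9.53). Brg1-/- arrays then overlapped wild type. The fitted change in Snf5-/- was 0.79 ± 0.27 (limma adjusted p = 0.0612, deposited 0.167), and 0.37 ± 0.14 without Snf5-/- replicate 2 (adjusted p = 0.0822). In Brg1-/- the change was -0.17 ± 0.25 after normalization (adjusted p = 0.654). On the deposited scale it was -0.64 ± 0.23 (adjusted p = 0.0299), where the median of all genes was -0.47 and 44.1% of genes were called lower, and that call was kept in 5 of 10 fits that left out 1 array.

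Iigp1, an effector that oligomerises on parasite vacuoles, passed the test in Snf5-/-, and the other effectors did not. Its brighter probe set read 137.1, 144.4 and 107.5 on wild-type arrays, 231.9, 1163.1 and 868.8 on those of Snf5-/-, and 70.4, 182.2, 164.8 and 356.7 in Brg1-/-. Every Snf5-/- array was above every wild-type array, whereas Brg1-/- arrays spread from below to above them. Iigp1 rose by 2.53 ± 0.56 on the log2 scale in Snf5-/- (limma adjusted p = 0.00937, deposited 0.00382), a 5.77-fold increase, and remained past the threshold in all 10 fits that left out 1 array. In Brg1-/- the change was 0.79 ± 0.53 (adjusted p = 0.295), with a 95% interval of -0.36 to 1.94.

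The dimmer Iigp1 probe set read 6.8, 31.8 and 8.5 on wild-type arrays, 49.6, 385.8 and 301.4 on those of Snf5-/-, and 32.2, 54.5, 34.1 and 130.9 in Brg1-/-. It was above background on 1 of 3 wild-type, 2 of 3 Snf5-/- and 2 of 4 Brg1-/- arrays. It passed the filter on low values only through mutant arrays, and the fitted sizes rest on wild-type values of which 1 was above background, so they are given as descriptions and do not support the calls of the brighter probe set. Fitted on its own, its difference from wild type was 4.09 ± 0.89 in Snf5-/- (limma adjusted p = 0.00908) and 2.50 ± 0.83 in Brg1-/- (adjusted p = 0.0446, deposited 0.0426). The 2 Iigp1 probe sets differ on the call in Brg1-/-.

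Ifi47, another effector, did not separate wild type from either mutant. Wild-type arrays read 204.7, 131.7 and 153.3, Snf5-/- arrays 79.7, 399.4 and 293.6, and Brg1-/- arrays 46.7, 122.8, 81.9 and 140.3. Among the Snf5-/- arrays 1 was below and 2 were above all wild-type arrays, and the highest Brg1-/- array overlapped the wild-type range. The change was 0.65 ± 0.52 in Snf5-/- (limma adjusted p = 0.428) and -0.42 ± 0.49 in Brg1-/- (adjusted p = 0.566). The 95% intervals were -0.49 to 1.79 and -1.48 to 0.65, wide enough to hold a large change either way. Without Snf5-/- replicate 2 the Snf5-/- change was 0.14 after normalization and -0.069 on the deposited scale (adjusted p = 0.945).

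The Tgtp1/Tgtp2 probe set, which reports a pair of effector genes together, depended most on a single array. It read 144.9, 104.6 and 140.5 on wild-type arrays, 90.1, 920.7 and 168.2 on those of Snf5-/-, and 40.1, 49.3, 53.1 and 99.4 in Brg1-/-. Snf5-/- replicate 2 was far above the rest, and all 4 Brg1-/- arrays were below every wild-type array on the deposited scale, as for 49.3% of genes tested, but overlapped wild type after normalization. The fitted change was 1.17 ± 0.67 in Snf5-/- (limma adjusted p = 0.261), and 0.15 ± 0.41 without Snf5-/- replicate 2 (adjusted p = 0.835). In Brg1-/- it was -0.77 ± 0.63 (adjusted p = 0.407, deposited 0.0843).

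Gbp2, a GBP that coats parasite and bacterial vacuoles, was nearly constant in wild type and higher on all Snf5-/- arrays. Its brighter probe set read 147.6, 143.7 and 137.6 on wild-type arrays, 270.2, 1184 and 384.2 on those of Snf5-/-, and 134.1, 173.2, 172.7 and 254.3 in Brg1-/-. All Snf5-/- arrays exceeded all others, while Brg1-/- replicate 1 lay under the wild-type range and the other 3 above it on the deposited scale. Gbp2 rose by 2.06 ± 0.43 on the log2 scale in Snf5-/- (limma adjusted p = 0.00677, deposited 0.00255). Without Snf5-/- replicate 2 the increase was 1.39 ± 0.24 (adjusted p = 0.00211). In Brg1-/- the change was 0.73 ± 0.40 (adjusted p = 0.203), and 0.73 ± 0.20 without Snf5-/- replicate 2, whose spread enters the shared error (adjusted p = 0.0156, deposited 0.269).

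The dimmer Gbp2 probe set passed the filter only through mutant arrays, since no wild-type array had it at the 40th percentile, and it adds no separate support. It read 73.2, 93.8 and 93.3 on wild-type arrays, 217, 729.3 and 223 on those of Snf5-/-, and 56.8, 88.4, 83.4 and 156.9 in Brg1-/-. All Snf5-/- arrays were above all others and Brg1-/- arrays overlapped wild type. Fitted on its own, its difference from wild type was 2.20 ± 0.47 in Snf5-/- (limma adjusted p = 0.00848, deposited 0.00449), and in Brg1-/- it was 0.47 ± 0.44 (adjusted p = 0.471).

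Gbp3, a second GBP, was near background without a deletion. Wild-type arrays read 14.3, 47.3 and 51.4, and 1 of the 3 was above its background. Snf5-/- arrays read 135.7, 509.5 and 136.4, and Brg1-/- arrays 62.9, 132.2, 84.4 and 119.3. Every mutant array was above every wild-type array, and all 7 mutant arrays were above background. Gbp3 rose by 2.94 ± 0.62 on the log2 scale in Snf5-/- (limma adjusted p = 0.00695, deposited 0.00258). In Brg1-/- it rose by 1.92 ± 0.58 (adjusted p = 0.0274, deposited 0.0211). The Brg1-/- call was lost without wild-type replicate 1 (change 1.31, adjusted p = 0.114, deposited 0.164) and without Brg1-/- replicate 2 (1.73, adjusted p = 0.0748, deposited 0.0621). It was also lost on the normalized scale without Brg1-/- replicate 4 (1.87, adjusted p = 0.0563). No wild-type array had Gbp3 at or above the 40th percentile of that array, so it entered the test only through mutant arrays.

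**Figure D2:**
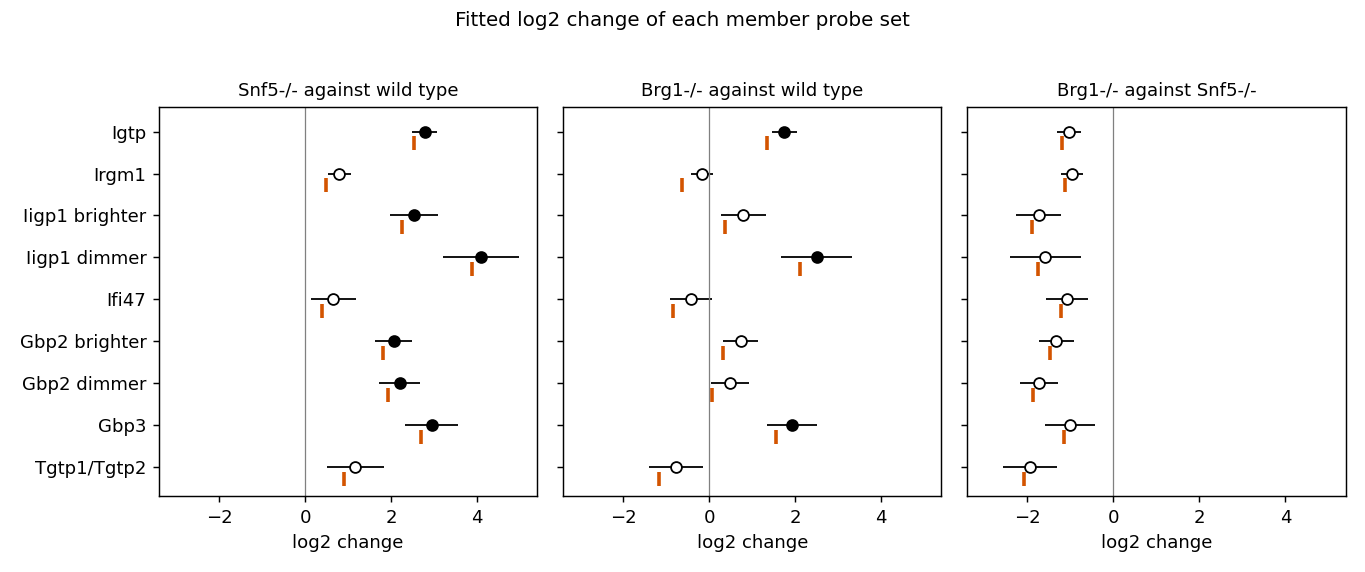
Fitted log2 change of each member probe set in the 3 comparisons on the quantile-normalized scale (points, bars are 1 SE) and on the deposited scale (orange ticks), with filled points where the adjusted p was under 0.05 on both. Filled points lie to the right of 0 in both comparisons with wild type, from 1.75 to 4.09 (the dimmer Iigp1 probe set, on 2 of 3 wild-type arrays not above background), and the comparison of the mutants holds open points only, all left of 0.

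Set directly against Snf5-/-, the Brg1-/- arrays gave lower fitted values for all 6 members with their own probe set, from -1.74 ± 0.53 in Iigp1 to -0.97 ± 0.25 in Irgm1. On the deposited scale every Brg1-/- array lay below every Snf5-/- array for 4 members (Igtp, Irgm1, Gbp2 and Gbp3), as for 20.6% of genes. After normalization limma called 0 of the 6 members lower at an adjusted p of 0.05, where 2.27% of genes were called lower. Before adjustment 5 of the 6 had a p under 0.05, a level at which the share of all genes was not computed. The adjusted p was 0.0521 for Irgm1, 0.0596 for Igtp, 0.0869 for Iigp1 and for Gbp2, 0.227 for Ifi47 and 0.334 for Gbp3. On the deposited scale 4 of 6 were called lower, namely Irgm1 (adjusted p = 0.00996), Igtp (0.0136), Gbp2 (0.0211) and Iigp1 (0.0251), beside 3.93% of all genes. For Tgtp1/Tgtp2 the change was -1.94 ± 0.63 (adjusted p = 0.101, deposited 0.0447), and -0.92 ± 0.39 without Snf5-/- replicate 2 (adjusted p = 0.206, deposited 0.169). Without that array 1 member, Irgm1, was called on the deposited scale (-0.77, adjusted p = 0.0397). With all arrays, the 95% intervals for Igtp (-1.64 to -0.42), Irgm1 (-1.52 to -0.41), Iigp1 (-2.89 to -0.59) and Gbp2 (-2.21 to -0.45) lie below 0 before adjustment. The one for Ifi47 (-2.13 to -0.0037) only just does, and the one for Gbp3 runs from -2.28 to 0.24.

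The members differed in spread as well as in level. Across the 3 Snf5-/- arrays, replicate 2 was the highest for 9 of 9 probe sets on both scales. Replicate 1 was the lowest for 9 of 9 on the deposited scale and for 7 of 9 after normalization, where replicate 3 was lower for Gbp3 and the dimmer Gbp2 probe set. Averaged over 6 members on the log2 scale and set against the mean of all arrays, Snf5-/- replicates 1, 2 and 3 stood at 0.17, 2.11 and 0.92. Wild-type replicates stood at -1.17, -0.77 and -0.75, and Brg1-/- replicates at -0.63, 0.16, -0.28 and 0.24. All Snf5-/- arrays were above all wild-type arrays on this measure, and so were all Brg1-/- arrays, while the highest Brg1-/- array exceeded the lowest Snf5-/- array. The Brg1-/- separation depended on Gbp3, which entered the test only through mutant arrays. Over the other 5 members Brg1-/- replicate 1 did not lie above all wild-type arrays. The median change over the 6 members was 2.29 in Snf5-/-, 0.76 in Brg1-/- and -1.05 between the mutants, where all genes had medians of 0.02, 0.02 and -0.01.

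Macrophage and leukocyte markers, taken as a list, were also highest on Snf5-/- replicate 2. The 15 macrophage and leukocyte markers summed to an intensity of 11519.9 on Snf5-/- replicate 2, against 3225.3 and 3886.7 on the other Snf5-/- arrays, 4215.5 to 7170.2 in wild type and 2612.7 to 5473 in Brg1-/-. Between 11 and 14 of the 15 were above background on every array, and Itgam was not above it on any Snf5-/- array. The complement gene C1qb, made by macrophages, read 54.7 to 91.1 in wild type, 120.3 to 361.9 in Snf5-/- and 119.8 to 210.4 in Brg1-/-, so that both mutants lay above wild type. Of the 12 leukocyte markers bright enough to test, 2 rose in each mutant (C1qb and C1qc, both tested only through mutant arrays) and 10 were not called, with median changes of 0.33 in Snf5-/- and -0.0057 in Brg1-/-. More cells of a type and more RNA per cell cannot be told apart in these bulk samples.

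Without Snf5-/- replicate 2 the same 4 members were still called higher in Snf5-/- on both scales. Their changes were then 2.46 ± 0.27 for Igtp, 2.03 ± 0.56 for Iigp1, 1.39 ± 0.24 for Gbp2 and 2.27 ± 0.59 for Gbp3. On the remaining Snf5-/- arrays the leukocyte markers had a lower summed intensity than on any wild-type array, but their mean log2 level after normalization (-0.20 and -0.40 relative to the mean of all arrays) was within the wild-type range of -0.62 to -0.044. The part of such cells in the members' values on Snf5-/- replicate 2 was not tested. The 9 T and NK cell markers, a list that includes the main producers of interferon gamma, summed to 195.7 to 354.1 over all arrays. On Snf5-/- replicate 2 they summed to 249.8, and Cd3d and Gzmb were not above background in any group. Endothelial markers summed to 346.7 to 661.2 and epithelial markers to 535.4 to 1774.8, with Tie1 and Epcam above background on no array, and neither sum was highest on Snf5-/- replicate 2.

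**Figure D3:**
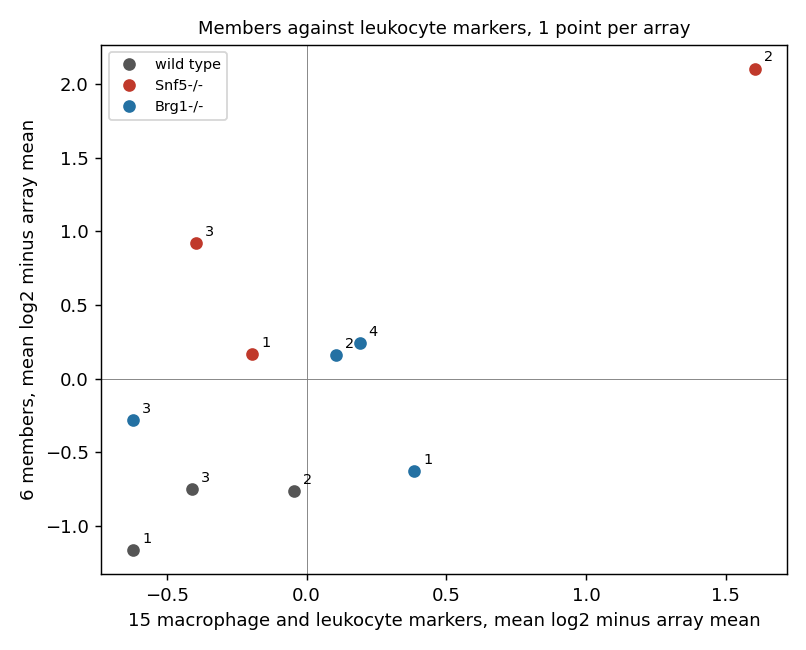
Mean log2 level of the 6 members (vertical) against that of the 15 macrophage and leukocyte markers (horizontal), each relative to the mean of the 10 arrays, with 1 numbered point per array coloured by genotype. Snf5-/- replicate 2 is highest on both axes at 1.61 and 2.11, and Snf5-/- replicates 1 and 3 lie within the wild-type range on the marker axis (-0.20 and -0.40, wild type -0.62 to -0.044) and above all wild-type arrays on the member axis.

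Some other genes of the family were also called higher in Snf5-/-. Of 34 further names searched, 8 had a probe set of their own and 4 were bright enough to test. Of these 4, 3 rose in Snf5-/- and 0 fell on both scales, where 3.16% of all genes rose and 7.46% fell. Irgm2 and Gbp7 entered the test only through mutant arrays, and of the other 2, 1 rose. The regulatory IRG Irgm2 read 47.3, 59.3 and 72 on wild-type arrays, 150.8, 398.8 and 311.1 on those of Snf5-/-, and 81.3, 99.9, 77.3 and 96.8 in Brg1-/-. All mutant arrays were above all wild-type arrays, and all Snf5-/- arrays above all Brg1-/- arrays. Irgm2 rose by 2.43 ± 0.36 in Snf5-/- (limma adjusted p = 0.000804, deposited 0.000563), and its change in Brg1-/- was 0.99 ± 0.34 (adjusted p = 0.0458, deposited 0.166).

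Gbp7, a GBP with a part in the oxidative and autophagic defence of vacuoles, read 92.8, 96.6 and 106 on wild-type arrays, 175.5, 628.1 and 368.5 on those of Snf5-/-, and 78.8, 95.2, 148.7 and 127.9 in Brg1-/-. It rose by 2.06 ± 0.38 in Snf5-/- (limma adjusted p = 0.00328, deposited 0.00234), and Brg1-/- arrays overlapped wild type (0.54 ± 0.36, adjusted p = 0.287). A second Gbp7 probe set was not above background on any wild-type array and was at least 7.28-fold higher in Snf5-/- and at least 5.16-fold higher in Brg1-/-. These bounds set the mean of the bright group against the background of the dim arrays, and they carry no spread and no test. The probe sets of Gbp7 differ in Brg1-/-, where arrays of the brighter one overlapped wild type. Gbp2b, the closest relative of Gbp2 in name, read 102.9, 185.5 and 132 on wild-type arrays, 341.2, 1562.8 and 206.3 on those of Snf5-/-, and 96.8, 213.3, 180.2 and 265.4 in Brg1-/-. It rose by 2.06 ± 0.63 in Snf5-/- (adjusted p = 0.0389, deposited 0.0167), with 1.17 ± 0.42 and an adjusted p of 0.073 without Snf5-/- replicate 2. Leaving out any wild-type array, Snf5-/- replicates 1 or 2, or Brg1-/- replicates 2 or 3 lost that call, with the highest adjusted p, 0.124, without wild-type replicate 1. The atlastin Atl3, a relative that shapes the endoplasmic reticulum and is not known as an interferon target, had a change of 0.07 ± 0.18 (adjusted p = 0.835).

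Between the mutants, Irgm2 and Gbp7 were lower in Brg1-/- on both scales, by -1.44 ± 0.34 (limma adjusted p = 0.0342) and -1.52 ± 0.36 (adjusted p = 0.0346), where 2.08% of genes tested were. Without Snf5-/- replicate 2 the adjusted p values were 0.125 and 0.0934. Leaving out wild-type replicate 2, Snf5-/- replicate 3 or Brg1-/- replicates 1, 2 or 3 also lost both calls, and leaving out wild-type replicate 3 that of Gbp7. Both genes entered the test only through mutant arrays, Irgm2 through 3 Snf5-/- arrays and 1 Brg1-/- array. High Snf5-/- values thus let Irgm2 in, so the 2.08% is not a fair measure for its call. Of the other 2 genes tested, 0 were called lower. Against wild type 0 of the 4 genes tested were called in Brg1-/- on both scales, where 3.43% of all genes rose and 12.9% fell. An unadjusted p under 0.05 was held by 1, and the share of all genes at that level was not computed.

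**Figure D4:**
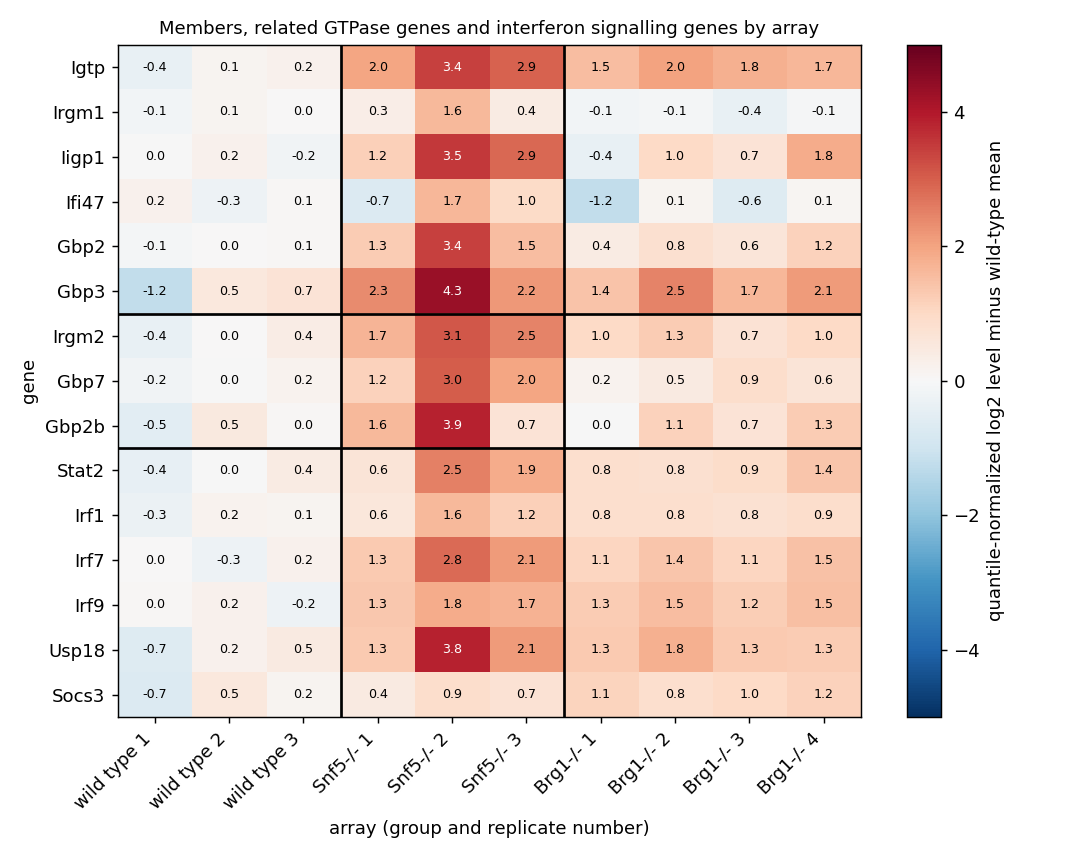
Quantile-normalized log2 level of the 6 members (top), 3 related GTPase genes (middle) and 6 interferon signalling genes (bottom) on each array, minus the wild-type mean of the gene, with the value in each cell. Values reach 4.31 for Gbp3 on Snf5-/- replicate 2 and fall to -1.25 for Ifi47 on Brg1-/- replicate 1, and Irf9 is above 1 on all mutant arrays.

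Genes of the interferon pathway were described from its ligands to its inhibitors. Whether any of them drove the members' values, or changed alongside them, was not tested. Of 30 names searched, 28 had a probe set and 20 were bright enough to test. In Snf5-/- 5 rose and 0 fell on both scales, where 3.16% of all genes rose and 7.46% fell, with a median change of 0.37 over the 20. In Brg1-/- 4 rose and 0 fell, where 3.43% rose and 12.9% fell, with a median of 0.34. Among the ligands, Ifng, which encodes interferon gamma, read 1.1 to 33.7 and was not above background on any array. Ifnb1 read 11.6 to 83.8, with 2 wild-type, 2 Snf5-/- and 2 Brg1-/- arrays above background. Of the interferon alpha genes, Ifna1 read 7.1 to 142.6 and was above background on 3 wild-type, 2 Snf5-/- and 3 Brg1-/- arrays. Ifna2 read 9.8 to 94.3, Ifna4 5.6 to 62.5 and Ifna5 6.1 to 100, each above background on at most 2 arrays of a group, and none of the ligands was bright enough to test. An mRNA level near background on these arrays does not show that no interferon was present.

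None of the receptor genes passed on both scales. For the interferon gamma receptor, Ifngr1 changed by -0.04 ± 0.16 in Snf5-/- (limma adjusted p = 0.886, deposited 0.29) and -0.28 ± 0.15 in Brg1-/- (adjusted p = 0.181, deposited 0.00591). Ifngr2 changed by -0.53 ± 0.18 (0.0625, deposited 0.0119) and -0.46 ± 0.17 (0.0646, deposited 0.00138). For the type I receptor, the Ifnar1 values were 0.66 ± 0.21 (adjusted p = 0.0436, deposited 0.32) and 0.62 ± 0.19 (0.0311, deposited 0.64). Those of Ifnar2 were -0.01 ± 0.16 (0.984, deposited 0.32) and -0.39 ± 0.15 (0.0638, deposited 0.00215). On the deposited scale alone 1353 of 8397 genes tested were called lower in Snf5-/- and 44.1% in Brg1-/-.

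In Snf5-/- 4 of the 5 increases were in transcription factors. Irf1, which activates many GBP and IRG genes, read 756.1, 797.5 and 731.1 on wild-type arrays, 897.9, 1782.2 and 1596.2 on those of Snf5-/-, and 925.6, 900.6, 983.3 and 985.4 in Brg1-/-. All mutant arrays were above all wild-type arrays. Irf1 rose by 1.13 ± 0.21 in Snf5-/- (limma adjusted p = 0.00355, deposited 0.0121; 0.0637 on the deposited scale without Snf5-/- replicate 2), and its change in Brg1-/- was 0.83 ± 0.20 (adjusted p = 0.0087, deposited 0.207). Irf9, the DNA-binding part of the type I interferon complex ISGF3, rose by 1.64 ± 0.17 in Snf5-/- and by 1.38 ± 0.16 in Brg1-/- (adjusted p = 7.43e-05 and 7.99e-05).

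Irf7, an amplifier of type I interferon, rose by 2.10 ± 0.30 in Snf5-/- (limma adjusted p = 0.000645) and by 1.25 ± 0.28 in Brg1-/- (adjusted p = 0.00614, deposited 0.0175; 0.0685 on the deposited scale without wild-type replicate 2). Stat2, the partner of Irf9 in ISGF3, rose by 1.68 ± 0.38 in Snf5-/- (adjusted p = 0.0101, deposited 0.00713; 0.06 on the deposited scale without wild-type replicate 1), and its change in Brg1-/- was 0.98 ± 0.36 (adjusted p = 0.0581).

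Among the inhibitors, Usp18, which blocks the type I receptor, rose by 2.41 ± 0.49 in Snf5-/- (limma adjusted p = 0.00553) and by 1.42 ± 0.46 in Brg1-/- (adjusted p = 0.0358). The Brg1-/- call was lost without wild-type replicates 1 or 2 or any Brg1-/- array, with the highest adjusted p, 0.154, without wild-type replicate 1. Socs3, a feedback inhibitor of JAK kinases, rose by 1.03 ± 0.24 in Brg1-/- (adjusted p = 0.00703, deposited 0.0308). Without wild-type replicate 1 its deposited-scale change was 0.36 (adjusted p = 0.2), and the call was also lost there without wild-type replicate 3 or Brg1-/- replicates 1, 3 or 4. Socs1, an inhibitor aimed at interferon gamma signalling, changed by 0.01 ± 0.29 and -0.08 ± 0.27. Between the mutants limma called 0 of the 20 signalling genes. An unadjusted p under 0.05 was held by 3, and the share of all genes at that level was not computed.

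Genes whose products load, lipidate or tag IRG and GBP proteins were taken as partners. Of 29 names searched, 26 had a probe set and 23 were tested, with median changes of -0.07 in Snf5-/- and -0.15 in Brg1-/-. In Snf5-/- 1 rose and 1 fell on both scales, where 3.16% and 7.46% of all genes did, so these counts are near the background. Trim21, a ubiquitin ligase and antibody receptor, rose by 1.17 ± 0.22 (limma adjusted p = 0.00385, deposited 0.0159), and Atg7, which drives the conjugation step of autophagy, fell by 0.72 ± 0.19 (adjusted p = 0.0234, deposited 0.00748). Trim21 lost its deposited-scale call without Snf5-/- replicate 2 (0.0698) or 3 (0.0501). The Atg7 call was lost without wild-type replicate 1 (0.0898), wild-type replicate 3 (0.0641) or Snf5-/- replicate 3 (0.075).

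In Brg1-/- 5 of the 23 fell and 0 rose on both scales, where 12.9% of genes tested fell. Atg7 fell by 0.82 ± 0.18 (limma adjusted p = 0.00584), the autophagy membrane proteins Map1lc3b by 0.32 ± 0.08 (0.00827) and Gabarapl1 by 0.48 ± 0.12 (0.0119), the autophagy receptor Sqstm1 by 0.68 ± 0.20 (0.0273) and Icmt, which finishes prenylated proteins, by 0.53 ± 0.12 (0.00732). Sqstm1 lost its call without any of the wild-type arrays or Brg1-/- replicates 1, 2 or 3, the highest adjusted p being 0.0875 without wild-type replicate 3. Map1lc3b lost its call without wild-type replicate 2 (0.0518) and Gabarapl1 without wild-type replicate 3 (0.07). Map1lc3b was also lower in Brg1-/- than in Snf5-/-, by -0.31 ± 0.08 (adjusted p = 0.0415, deposited 0.0205). That call was lost on leaving out each array other than Snf5-/- replicate 3 or Brg1-/- replicate 4, with the highest adjusted p, 0.114, without Snf5-/- replicate 1.

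Across all genes tested, those whose values over the 10 arrays were most like the mean of the 6 members were Ifit3 (Pearson r = 0.97), Gbp7 (0.96), Parp14 (0.95), H2-M3 (0.94), Irgm2 (0.94), Ifit1 (0.93), Agrn (0.93) and Psmb10 (0.93). These correlations describe 10 arrays that share genotypes and 1 outlying Snf5-/- array, and carry no test. The genes were picked by this likeness on the same arrays, so how their groups separate follows in part from the choice and is only described. The members themselves correlated with that mean at 0.77 for Ifi47 up to 0.98 for Gbp2. Each is part of the mean, which raises its value, so these are not comparable with those of the other genes. Ifit1, an RNA-binding antiviral protein, read 87.6 to 145 in wild type, 795.4 to 5420.3 in Snf5-/- and 297.6 to 584.9 in Brg1-/-, with no overlap between groups. Ifit3 read 167.3 to 219.4, 240.8 to 3117.8 and 158.4 to 426.3 in the same order, so that Snf5-/- lay above wild type and Brg1-/- overlapped both. Agrn, which encodes a basement membrane proteoglycan, read 417.6 to 746 in wild type, 642.1 to 1463.8 in Snf5-/- and 447.7 to 499.7 in Brg1-/-.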

How the data were processed

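Biotin-labelled fibroblast RNA was hybridised to 10 Affymetrix arrays, 1 sample each. The deposited values are linear probe set intensities that the authors made with MAS5, per the submitters' processing notes, and its version, scaling target and filters are not given in the sources used here. No samples were pooled and no columns were left unmapped (0). Probe sets were named from the platform annotation supplied with the data: 20380 carried 1 symbol, 691 several, 1555 were not listed and 64 were controls.

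Intensities were quantile normalized, taken to log2 without an offset and fitted with limma 3.58.1 in R 4.3.3 (1 mean per group over all 10 arrays, 7 residual degrees of freedom, eBayes with intensity trend, two-sided, Benjamini-Hochberg over all genes, threshold 0.05). The brightest probe set stood for a gene. A gene was tested where at least 3 arrays had it at the 40th percentile of all probe sets or higher, 8397 on the normalized and 8398 on the deposited scale. Each probe set of 1 symbol was also fitted on its own (13370), and Tgtp1/Tgtp2 in a fit of all 14506 probe sets. The script was tested on simulated data. The number of arrays limits the precision. Alternatives were the deposited scale, median centring, an offset of 16, other filters, probe set averages, other variance models, 2 groups only, the replicate number as a block and leaving out each array. Named genes were all members, both targeted genes, genes of the family, signalling and partner lists that passed on both scales (up to 8 per list and comparison), ligands, receptors and the 8 genes most like the members, and examples outside the rule (Atl3, Socs1 and the cell type markers named) were picked after their values were seen. The members and lists were chosen with earlier results of these data known.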

Additional observations from a re-analysis of the deposited data

How the results depend on the processing

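The 4 members called in Snf5-/- against wild type (4 to 5 without 1 array) kept their direction and call in every alternative that tested them; a filter on the mean leaves Gbp3 untested. With it the 2 called in Brg1-/- became 1, and they ranged from 1 to 3 without 1 array (1 to 4 on the deposited scale). Between the mutants the 0 members called became 4 on the deposited scale, 1 with median centring, the filter on the mean or array weights, and 3 with the replicate block, and ranged from 0 to 5 without 1 array (1 to 5 deposited, where all 10 arrays gave 4). The labels do not say whether replicate numbers pair the arrays. Of 9 same-number correlations 0 passed 0.1 (-0.06 to 0.08), and 5 of 9 were best with their own number. With 3 or 4 arrays in a group these values cannot show or exclude pairing. On the deposited scale Ifi47 in Snf5-/- turned to -0.069 without Snf5-/- replicate 2, and Iigp1 in Brg1-/- to -0.0032 without Brg1-/- replicate 4 (adjusted p = 0.996). Over all genes, calls in Brg1-/- against wild type went from 2332 to 3990 on the deposited scale. Between the mutants they went from 367 to 235 with probe set means, 193 without the intensity trend and 149 with 2 groups only. Without 1 array they ranged from 926 to 1661 (Snf5-/-, 1519 with all), 1636 to 2507 (Brg1-/-) and 119 to 498 (between mutants). Of the other IRG and GBP genes, the 1 called in Brg1-/- became 0 on the deposited scale, with the offset, without the filter and with the replicate block, and 2 with probe set means (0 to 1 without 1 array). The 2 called between mutants became 1 without the filter, with probe set means or without the trend, and 0 with array weights or 2 groups only (0 to 2). Signalling genes called in Brg1-/- went from 7 to 11 with array weights (5 to 9), and between mutants from 0 to 1 on the deposited scale or with probe set means (0 to 2). Partner genes called in Snf5-/- went from 3 to 8 on the deposited scale and 6 with probe set means (1 to 4), in Brg1-/- from 6 to 16 deposited (3 to 7), and between mutants from 1 to 2 deposited and to 0 without the filter, with probe set means, without the trend or with 2 groups only (0 to 1). The cause of these shifts was not tested. Signal near background limits Gbp3 and the dimmer Iigp1 probe set in wild type.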
